A study of Homo sapiens with 6 samples.

Results

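The genes of YAP/TAZ, their DNA-binding TEAD partners, the VGLL cofactors and the LATS kinases were followed at the mRNA level in DAGLA-silenced liver cancer cells. The 10 members, YAP1, WWTR1, TEAD1, TEAD2, TEAD3, TEAD4, VGLL3, VGLL4, LATS1 and LATS2, were taken by symbol through their Ensembl identifiers in GENCODE release 29. Each symbol matched 1 row of the deposited table of 29908 genes, and all 10 members were expressed highly enough to be tested. The cells were Hep3B, an established human hepatocellular carcinoma line, which both groups share. Hep3B-KD cells carried shDAGLA, a lentiviral hairpin (shRNA) that targets DAGLA. This gene encodes diacylglycerol lipase alpha, which releases the endocannabinoid 2-arachidonoylglycerol from diacylglycerol. Hep3B-Con cells were infected with a control lentivirus, described as an empty vector in one record and as a control shRNA in another. Both infections used a multiplicity of 5, and stably infected cells were selected with puromycin. There were 3 libraries of each group, and 1 hairpin in 1 cell line was sequenced, so effects of DAGLA and of other targets of the hairpin cannot be told apart. The records call the libraries biological replicates without naming separate cultures, so the p-values measure the spread between these libraries only.

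In the Hippo pathway, the kinases MST1 and MST2 (genes STK4 and STK3) activate LATS1 and LATS2, which phosphorylate the coactivators YAP (YAP1) and TAZ (WWTR1) and keep them out of the nucleus. Unphosphorylated YAP and TAZ enter the nucleus and bind TEAD factors, which bring them to DNA. VGLL proteins have no DNA-binding domain of their own and occupy TEADs as well, VGLL4 as a repressor of YAP-TEAD transcription. In the liver this pathway limits organ size, and active YAP is a known driver of liver tumours. An mRNA level carries no information on phosphorylation or on where a protein resides.

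Reads assigned to genes, recovered from the deposited values, numbered 16644962 to 17572714 in Hep3B-Con and 15861039 to 16593115 in Hep3B-KD. Depth was thus lower in every Hep3B-KD library than in any Hep3B-Con library, by a small margin at the nearest. DAGLA itself was at 9.42, 9.40 and 9.02 FPKM (reads scaled to exon length and to library depth) in Hep3B-Con and at 4.62, 4.46 and 4.78 FPKM in Hep3B-KD. All 12 hepatocyte lineage markers on the list used were expressed, with ALB the most abundant at a mean of 2678 FPKM over the libraries. Their summed level, in large part that of ALB, was 3286 to 3346 FPKM in Hep3B-Con and 4864 to 4892 FPKM in Hep3B-KD. Of the 12, 8 were called higher and 3 lower, where 36.1% of all genes tested were called higher and 23.8% lower. Markers of other cell types were low. The 6 fibroblast and stellate cell markers summed to 9.28 to 10.2 FPKM in Hep3B-Con and 5.48 to 5.96 in Hep3B-KD, the 4 endothelial markers to at most 0.385 FPKM in any library and the 4 leukocyte markers to at most 4.0, with CD68 and CD3E without a row. The part of this shift in lineage markers in the results below was not tested, and in bulk RNA fewer cells of a type and less RNA per cell cannot be told apart.

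Of the 10 members, 5 fell in Hep3B-KD, YAP1, WWTR1, TEAD3, TEAD4 and VGLL3, and 4 rose, TEAD1, TEAD2, VGLL4 and LATS1. LATS2 was not called. A gene was called at an adjusted p under 0.05 in limma, fitted on log2(FPKM + 0.1) over the 14221 genes whose mean reached 0.5 FPKM. At this threshold 59.9% of all genes tested were called, 36.1% as higher and 23.8% as lower, so that 9 called members of 10 says little about the members by itself. With each library centred on its median log2 ratio, 4064 genes were higher and 4308 lower, against 5133 and 3388 as deposited. None of the members reached a 2-fold change, which 8.83% of all genes tested did. In 9 members the groups did not overlap. The same held for 66.9% of all genes tested, with Hep3B-KD above in 40.7% and below in 26.3%. The median absolute log2 fold change was 0.44 over the members and 0.35 over all genes tested, and 7 members lay above the latter. With its sign, the median was 0.11 over all genes tested and -0.09 over the members.

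**Figure D1:**
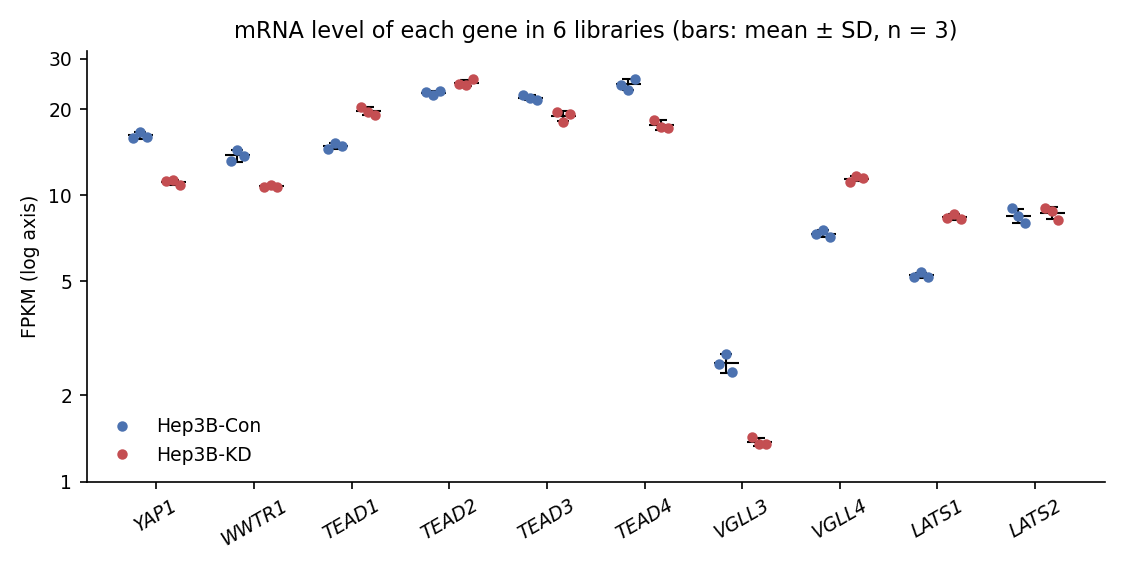
FPKM of the 10 genes on a log axis, with 1 point per library (blue Hep3B-Con, red Hep3B-KD) and black bars for the mean ± SD (n = 3). The points of the groups are apart in every gene but LATS2, and VGLL3 is the lowest of the 10 in both groups.

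The coactivators YAP1 and WWTR1 were both lower in Hep3B-KD. YAP1 (ENSG00000137693, chromosome 11, 102110461 to 102233423, plus strand, GRCh38) was at 15.9, 16.7 and 16 FPKM in Hep3B-Con and at 11.2, 11.3 and 10.9 FPKM in Hep3B-KD. The groups lay far apart relative to their spread, and the Hep3B-KD mean was 68.6% of the control mean. The log2 fold change was -0.54, with a 95% interval from -0.62 to -0.46 (limma, adjusted p = 1.94e-05), resting on 1120 to 1824 reads per library. Of the 6296 exon bases of YAP1, 628 are shared with an antisense gene on the opposite strand. That gene had no row, so its level is not known, and its part in the YAP1 values was not tested. WWTR1 (ENSG00000018408, chromosome 3, 149517235 to 149736714, minus strand), which encodes TAZ, was at 13.1, 14.4 and 13.7 FPKM in Hep3B-Con against 10.7, 10.9 and 10.7 in Hep3B-KD. This was a log2 fold change of -0.35 (95% interval -0.45 to -0.25, limma adjusted p = 0.000362), and again no value in Hep3B-KD reached the lowest value in Hep3B-Con.

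YAP1 fell further than WWTR1. There were 1.18 ± 0.0303 FPKM of YAP1 per FPKM of WWTR1 in Hep3B-Con and 1.03 ± 0.0153 FPKM in Hep3B-KD (SD, n = 3 each). The log2 ratio was lower by 0.19, with no overlap of the groups (two-sided exact permutation test, p = 0.1). No smaller p can come from 3 libraries against 3. In all, 14 sums, shares and ratios within these families were compared in this way, and each had p = 0.1 in the exact test, also after Benjamini-Hochberg adjustment over the 14. Added together, YAP1 and WWTR1 gave 29.97 ± 1.05 FPKM in Hep3B-Con and 21.9 ± 0.317 FPKM in Hep3B-KD (SD, n = 3 each), a level lower by 27%.

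YAP1 and VGLL3 were the only members with a match to the hairpin's guide in the longest annotated 3' UTR, and their sites are shown because the hairpin differs between the groups. The sequence listed for shDAGLA was taken as the target, and the guide strand as its reverse complement. The seed, bases 2 to 8 from the 5' end of this guide, is in capitals. The sources used here do not state the strand or the first base of the guide. The sites are stretches of GENCODE release 29 transcripts on GRCh38, with the 7 bases that pair with the seed in capitals, at chr11:102231362-102231391 (plus strand) for YAP1 and chr3:86940161-86940190 (minus strand) for VGLL3.
shDAGLA target: gcgacaacaaggccttcaa
guide strand: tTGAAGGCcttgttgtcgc
YAP1 site: attaaaatattGCCTTCAagattgttctta
VGLL3 site: tctctaagtggGCCTTCAattttcttatta
In both sites an A follows the match, opposite the leading base of the guide. The match was present in 14.6% of the 11189 genes tested with a 3' UTR of at least 50 bases, and in 31.5% of the 2493 whose 3' UTR was at least as long as the members' median of 2984.5 bases. None of the 10 members held GTTGTCG, which pairs with the seed of the opposite strand of the hairpin and occurred in 1.26% of the genes. Both genes with a match fell, as did WWTR1, TEAD3 and TEAD4 without one. A match is a description of the sequence, and its part in the change was not tested.

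The 4 TEAD genes encode the DNA-binding partners of YAP and TAZ, and they moved in opposite directions. TEAD4 (ENSG00000197905, chromosome 12, 2959330 to 3040673, plus strand) was at 24.3, 23.4 and 25.6 FPKM in Hep3B-Con and at 18.4, 17.3 and 17.1 FPKM in Hep3B-KD. It had the largest fall of the 4, with a log2 fold change of -0.47 (95% interval -0.58 to -0.37, limma adjusted p = 0.00012). TEAD3 (ENSG00000007866, chromosome 6, 35473597 to 35497076, minus strand) fell less, from 22.4, 21.9 and 21.6 FPKM to 19.5, 18.1 and 19.2 FPKM. Its log2 fold change was -0.21 (95% interval -0.30 to -0.12, limma adjusted p = 0.00238).

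TEAD1 (ENSG00000187079, chromosome 11, 12674591 to 12944483, plus strand) was the TEAD gene with the clearest rise. It was at 14.5, 15.3 and 14.9 FPKM in Hep3B-Con and at 20.4, 19.5 and 19.1 FPKM in Hep3B-KD. All Hep3B-KD values were above all control values, with a log2 fold change of 0.40 (95% interval 0.31 to 0.48, limma adjusted p = 0.000105). TEAD2 (ENSG00000074219, chromosome 19, 49340595 to 49362457, minus strand), the TEAD gene that the study singled out, was at 22.9, 22.4 and 23.2 FPKM in Hep3B-Con. The Hep3B-KD libraries had 24.5, 24.4 and 25.4 FPKM. The groups did not overlap, but the difference was small. TEAD2 had a log2 fold change of 0.12 (95% interval 0.05 to 0.19, limma adjusted p = 0.0107), about the median of all genes tested, 0.11. The study reported TEAD2 as downregulated in Hep3B-KD by Western blot, which measures protein, and states that DAGLA regulated its transcription. It also stained TEAD2 protein in xenograft tumours and reported a positive correlation of TEAD2 and DAGLA mRNA in patient tumours from a public database. In these libraries TEAD2 mRNA was not lower in Hep3B-KD.

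The call of TEAD2 depended on how the libraries were scaled. With each library centred on its median log2 ratio its log2 fold change was 0.014 (limma adjusted p = 0.701), and with voom on recovered reads it was 0.012 (limma adjusted p = 0.821). Exons of TEAD2 share 319 bases with CD37 on the opposite strand, of 2980 exon bases in all. The sources used here do not state whether strand was used in counting, so reads of both genes could be mixed there. CD37, a tetraspanin gene known from leukocytes, was at 6.95, 6.82 and 7.10 FPKM in Hep3B-Con and rose to 10.5, 10.0 and 9.63 FPKM in Hep3B-KD, a log2 fold change of 0.52 (limma adjusted p = 7.54e-05). The part of CD37 in the rise of TEAD2 was not tested.

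The makeup of the TEAD mRNA pool differed between the groups, while the difference in its size depended on the scaling. Summed over the 4 genes there were 84.1 ± 1.12 FPKM in Hep3B-Con and 81.0 ± 1.76 FPKM in Hep3B-KD (SD, n = 3 each), a level lower by 3.7%. Each gene counts in this sum by its FPKM, scaled to all annotated exons, 10279 bases for TEAD1 and 2272 for TEAD4. Sums and shares hold for this scaling only. TEAD1 made up 17.2% to 18.4% of the sum in Hep3B-Con and 23.6% to 24.6% in Hep3B-KD. TEAD4 went from 28.2% to 30.01% of the sum in the control libraries to 21.2% to 22.2% in the knockdown libraries. The share of TEAD2 was 27.0% to 27.2% against 29.6% to 31.4%, and that of TEAD3 was 25.3% to 26.7% against 22.8% to 23.7%. The ranges of the groups were apart for each of the 4 shares, which no scaling of whole libraries can move, and for the sum as deposited (two-sided exact permutation test, p = 0.1 for each, the smallest possible). With every library rescaled to the same FPKM sum, the summed TEAD level was 82.5 to 84.4 in Hep3B-Con and 79.5 to 83.9 in Hep3B-KD, so that the groups overlapped (two-sided exact permutation test, p = 0.4). For every 100 FPKM of TEAD1 to TEAD4 there were 35.6 ± 1.61 FPKM of YAP1 and WWTR1 in Hep3B-Con and 27.0 ± 0.819 FPKM in Hep3B-KD (SD, n = 3 each).

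**Figure D2:**
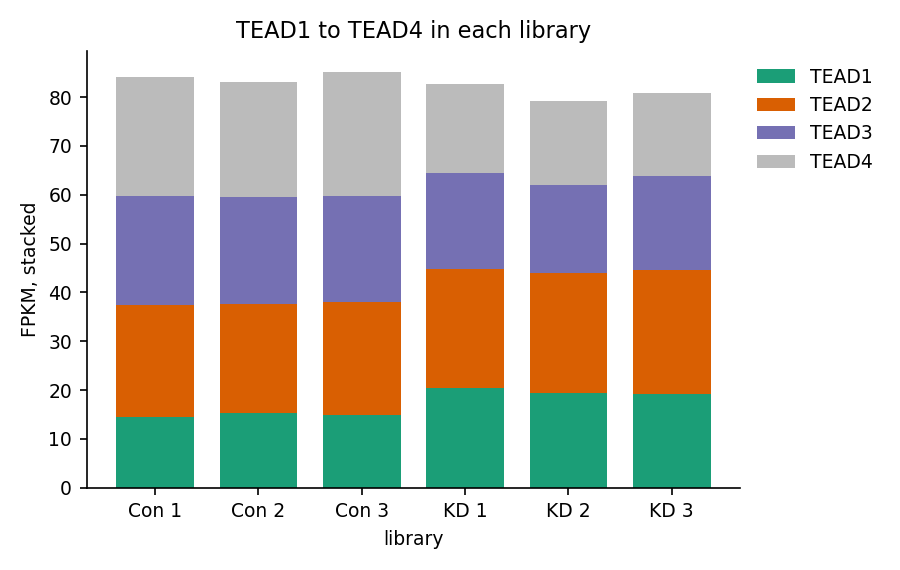
Stacked FPKM of TEAD1 to TEAD4 in each of the 6 libraries, with 1 bar per library and no error bars. The bars are of similar height, 79.2 to 85.2 FPKM, while the TEAD1 segment is taller and the TEAD4 segment shorter in the 3 Hep3B-KD libraries.

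The VGLL cofactors, which compete with or replace YAP and TAZ on TEADs, moved in opposite directions. VGLL4 (ENSG00000144560, chromosome 3, 11556070 to 11771350, minus strand) was at 7.35, 7.54 and 7.14 FPKM in Hep3B-Con and at 11.2, 11.7 and 11.5 FPKM in Hep3B-KD. This was a rise to 156% of the control mean, with a log2 fold change of 0.63 (95% interval 0.54 to 0.72, limma adjusted p = 1.63e-05). VGLL4 shares 1596 of its 7236 exon bases with ATG7 on the opposite strand, and ATG7 was at 4.24 ± 0.252 FPKM in Hep3B-Con and 4.43 ± 0.148 FPKM in Hep3B-KD (SD, n = 3 each, limma adjusted p = 0.414). Set against the TEAD pool, there were 8.73 ± 0.352 FPKM of VGLL4 per 100 FPKM of TEAD1 to TEAD4 in Hep3B-Con and 14.1 ± 0.622 FPKM in Hep3B-KD (SD, n = 3 each), and the groups did not overlap.

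VGLL3 (ENSG00000206538, chromosome 3, 86876388 to 86991119, minus strand), a TEAD cofactor that can activate transcription, was the least abundant member and had the largest change. It was at 2.58, 2.80 and 2.41 FPKM in Hep3B-Con and at 1.43, 1.35 and 1.36 FPKM in Hep3B-KD, with 276 to 619 reads per library behind these values. The Hep3B-KD mean was 53.1% of the control mean, and the log2 fold change was -0.87 (95% interval -1.07 to -0.66, limma adjusted p = 0.000166). It passed the 2-fold threshold under quantile normalization, at -1.10, and with voom on recovered reads, at -1.02. Of the other VGLL genes, VGLL1 had no row in the table and VGLL2 had at most 0.027 FPKM in any library.

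The LATS kinases, which phosphorylate YAP and TAZ, did not move together. LATS1 (ENSG00000131023, chromosome 6, 149658153 to 149718256, minus strand) was at 5.20, 5.38 and 5.18 FPKM in Hep3B-Con and at 8.34, 8.60 and 8.26 FPKM in Hep3B-KD. The groups were far apart, and the mean in Hep3B-KD was 160% of the control mean (log2 fold change 0.67, 95% interval 0.57 to 0.76, limma adjusted p = 1.55e-05). LATS2 (ENSG00000150457, chromosome 13, 20973032 to 21061547, minus strand), itself a known transcriptional target of YAP, was at 9.0, 8.45 and 8.0 FPKM in Hep3B-Con. In Hep3B-KD it was at 9.04, 8.80 and 8.20 FPKM, so that the groups overlapped. Its log2 fold change of 0.03 had a 95% interval from -0.11 to 0.17 (limma adjusted p = 0.652), and its sign turned under 4 of 16 alternatives.

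The LATS1 to LATS2 ratio shifted accordingly. There were 0.621 ± 0.0372 FPKM of LATS1 per FPKM of LATS2 in Hep3B-Con and 0.969 ± 0.0434 FPKM in Hep3B-KD (SD, n = 3 each), a difference of 0.64 in the log2 ratio with no overlap of the groups (two-sided exact permutation test, p = 0.1). Summed, both kinases gave 13.7 ± 0.515 FPKM in Hep3B-Con and 17.1 ± 0.535 FPKM in Hep3B-KD (SD, n = 3 each).

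**Figure D3:**
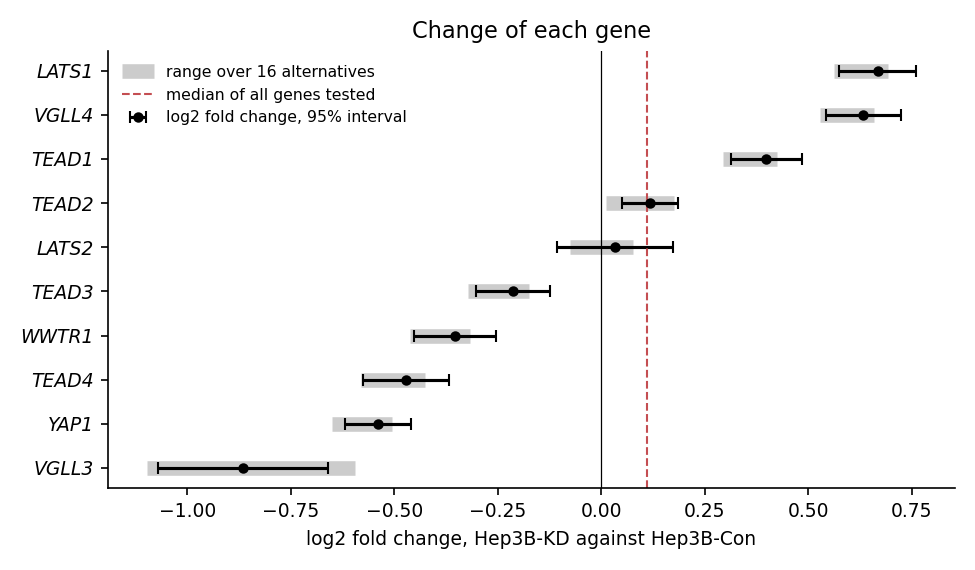
Log2 fold change of each gene, Hep3B-KD against Hep3B-Con, with 95% intervals from limma (black) and the range over 16 alternative processings (grey). The dashed line is the median of all genes tested, 0.11. LATS1 (0.67) and VGLL3 (-0.87) are at the ends, TEAD2 lies on the dashed line and the interval of LATS2 spans 0.

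The order of the levels changed between the groups. FPKM are scaled to the length of all annotated exons of a gene, used in these cells or not. The order between genes is therefore approximate. In Hep3B-Con the order was TEAD4, TEAD2, TEAD3, YAP1, TEAD1, WWTR1, LATS2, VGLL4, LATS1 and VGLL3, and only TEAD2 and TEAD3 had ranges that overlapped with their neighbour. In Hep3B-KD, TEAD2 led at 24.8 ± 0.59 FPKM (SD, n = 3), above TEAD1, TEAD3 and TEAD4, whose neighbouring ranges overlapped. VGLL4, YAP1 and WWTR1 followed with overlapping neighbours, at 11.4, 11.1 and 10.8 FPKM, whereas in Hep3B-Con VGLL4 was below both coactivators. LATS2 and LATS1 overlapped in Hep3B-KD, and VGLL3 was last in both groups.

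The TEAD core motif GGAATG, searched on both strands, was looked for in RefSeq promoter windows of GRCh38.p14 from 250 bases before to 50 bases after the start. Windows were found for 8 of the 10 members, 15 in all. YAP1 and LATS2 had 1 match each, and the other 13 windows had none. Of all 35116 windows, 14.0% held the motif. The matches, in capitals, are shown because LATS2 is a known YAP target, at chr11:102110273-102110302 (plus strand) for YAP1 and chr13:21061560-21061589 (minus strand) for LATS2.
YAP1 promoter: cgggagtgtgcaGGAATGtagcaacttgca
LATS2 promoter: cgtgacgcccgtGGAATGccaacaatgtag
Counted from the start site, the YAP1 match begins at position -162 and the LATS2 match at position 10. YAP1 fell and LATS2 was not called, so the members with a match did not move alike. Among established targets, the windows of CCN2 (CTGF in the annotation used) and ANKRD1 held 3 and 2 matches.

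The genes whose profiles over the 6 libraries were closest to a member were taken among 12049 others whose mean reached 1 FPKM, by Euclidean distance of centred log2 values. For YAP1 these were MMS19, PES1 and CANX, with distances of 0.0424 to 0.0445 and Pearson r of 0.998 each. LATS1 was closest to RAD52, TPR and ZNF302 (distances of 0.0389 to 0.0473), and TEAD2 to ZFAND3, EBLN3P and KLHDC3 (0.028 to 0.0381). These likenesses are a description over 6 libraries that fall into 2 groups.

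Among the other genes of the Hippo pathway, changes went both ways. Of 51 genes listed, 45 were tested, of which 23 rose and 16 fell, which is 86.7% called against 59.9% of all genes tested. By direction, 51.1% were called higher, against 36.1% of all genes tested, and 35.6% lower, against 23.8%. Their median log2 fold change was 0.20, against 0.11 for all genes tested, and 4 changed at least 2-fold, all higher, which is 8.89% of those tested against 8.83% of all genes tested. This count was 0 with a pseudocount of 1, and 1, a lower gene, with quantile normalization.

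In the core of the pathway, MOB1A and MOB1B encode activators of LATS. MOB1B rose from 3.84 ± 0.121 to 8.36 ± 0.28 FPKM (SD, n = 3 each; log2 fold change 1.10), while MOB1A fell slightly, by 0.09 on the log2 scale, a call lost in 9 of 16 alternatives, 5 of which left out a single library other than Hep3B-Con replicate 3. STK38L, a kinase related to LATS, rose by 0.85 on the log2 scale, and its paralog STK38 fell by 0.12, a call lost under quantile normalization and the replicate block. Of the MST genes, STK3 had a log2 fold change of 0.38 and STK4 of -0.18. The call of STK3 was lost without Hep3B-KD replicate 1 (limma adjusted p = 0.0513) or 2 (0.0518), with median centring (0.0511) and with quantile normalization (0.27). SAV1, the scaffold of the MST kinases, fell by 0.31. All 7 genes of this group were called, 3 higher and 4 lower, where 59.9% of all genes tested were called.

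Of the 9 upstream kinases tested, which can activate MST or LATS, 7 rose and 2 fell. This is 100% called, against 59.9% of all genes tested. TAOK3 rose from 1.86 ± 0.191 to 4.24 ± 0.259 FPKM and TAOK1 from 5.71 ± 0.118 to 11.9 ± 0.458 FPKM (SD, n = 3 each), with log2 fold changes of 1.15 and 1.04. MAP4K4, by far the most abundant of the group, rose from 156 ± 2.37 to 212 ± 1.99 FPKM (SD, n = 3 each), which is 0.45 on the log2 scale. MINK1 fell by 0.10 and TNIK by 0.16 on the log2 scale, and both calls were fragile. MINK1 lost it without any single library but Hep3B-Con replicate 2, and TNIK without Hep3B-Con replicate 2 or 3 or Hep3B-KD replicate 1 or 2. Among the kinases that rose, MAP4K2 and MAP4K5 lost their calls under quantile normalization (limma adjusted p = 0.0537 and 0.283).

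Of 12 tested regulators at the membrane and at junctions, 4 rose and 5 fell. This is 75% called, against 59.9% of all genes tested. FAT4, an atypical cadherin, rose from 0.778 ± 0.115 to 1.99 ± 0.0989 FPKM (SD, n = 3 each; log2 fold change 1.26). FRMD6 fell by 0.98 on the log2 scale. NF2, the gene of the tumour suppressor merlin that recruits LATS to the membrane, dropped by 0.73, from 11.7 ± 0.759 to 7.01 ± 0.567 FPKM (SD, n = 3 each). The angiomotins, which hold YAP outside the nucleus, differed from each other, with log2 fold changes of 0.20 for AMOT, -0.58 for AMOTL1 and -0.20 for AMOTL2. AMOT lost its call under 3 alternatives, among them centring on the median log2 ratio (limma adjusted p = 0.132).

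In a mixed group of 13 tested genes, made up of STRIPAK phosphatase complex, Ajuba and RASSF genes and the kinase MARK2, 7 rose and 3 fell. This is 76.9% called, against 59.9% of all genes tested. RASSF5 (0.96), STRIP2 (0.79) and SLMAP (0.59) had the highest log2 fold changes, and MARK2 fell by 0.72. RASSF5 was low, at 0.393 ± 0.119 FPKM in Hep3B-Con and 0.842 ± 0.0719 FPKM in Hep3B-KD (SD, n = 3 each). Its Hep3B-Con mean was under the filter of 0.5 FPKM, so it was tested only through its level in Hep3B-KD. RASSF5 lost its call without Hep3B-KD replicate 2 (limma adjusted p = 0.0519) and with quantile normalization (0.0643). RASSF1, another of the genes called lower, with a log2 fold change of -0.20, lost its call in 7 of 16 alternatives, among them those without Hep3B-Con replicate 2 or 3 or Hep3B-KD replicate 1 or 2. Within the striatins, the scaffold subunits of STRIPAK, STRN3 rose by 0.56 and STRN4 fell by 0.51 on the log2 scale. The paralogs BTRC and FBXW11, whose products mark phosphorylated YAP and TAZ for degradation, moved in opposite directions. BTRC rose from 3.65 ± 0.144 to 5.56 ± 0.0379 FPKM and FBXW11 fell from 37.5 ± 1.17 to 25.0 ± 1.16 FPKM (SD, n = 3 each), with log2 fold changes of 0.60 and -0.58. CSNK1D, a kinase that prepares YAP for this step, had a log2 fold change of 0.20, and it lost its call in 7 of 16 alternatives, among them those without Hep3B-Con replicate 2 or 3 or Hep3B-KD replicate 2 or 3.

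**Figure D4:**
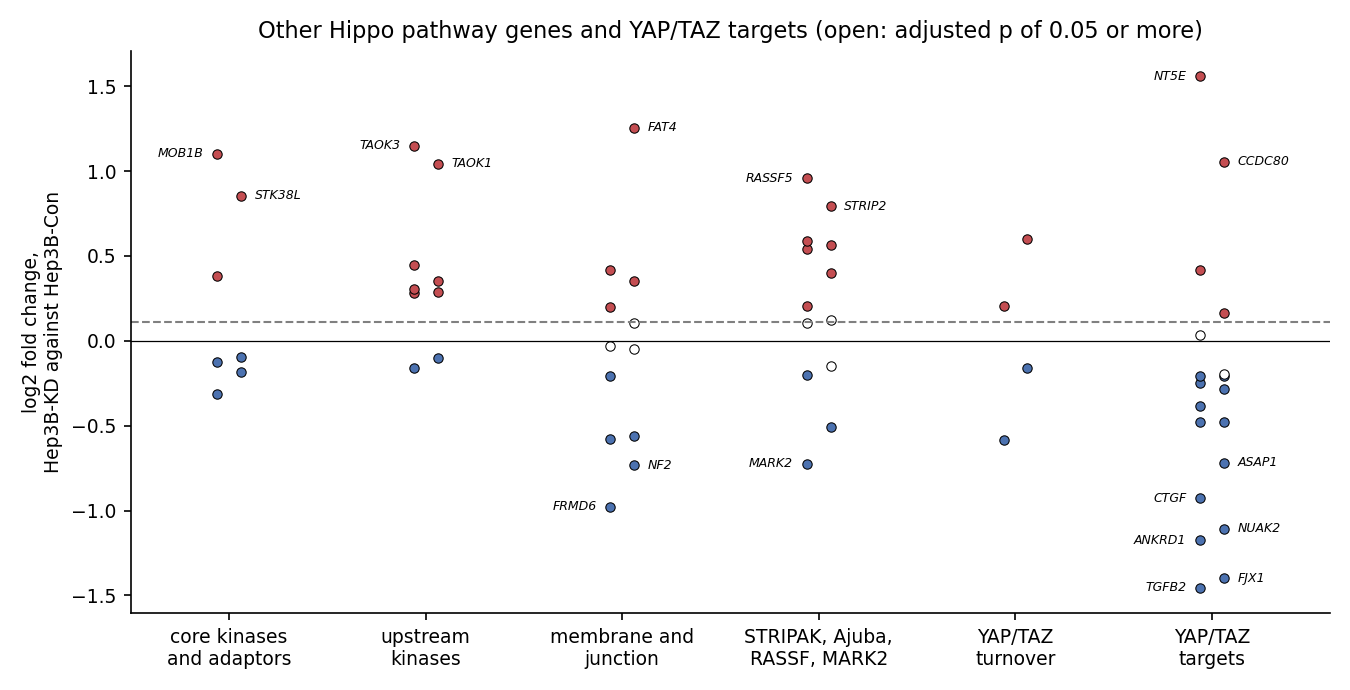
Log2 fold change, Hep3B-KD against Hep3B-Con, of the tested Hippo pathway genes by role and of 19 YAP/TAZ targets, with 1 point per gene, named where the absolute value is at least 0.7. Filled points have a limma adjusted p under 0.05 (red higher, blue lower), the dashed line is the median of all genes tested, and 13 of the 17 called targets are below 0.

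The targets of YAP and TAZ were mostly lower in Hep3B-KD. The list was a published set of 22 genes. It shares LATS2 with the members and AMOTL2 and PTPN14 with the other Hippo genes, and shared genes count in both. Of the 22 genes, 19 were tested. Of these, 13 were called lower (68.4%, against 23.8% of all genes tested) and 4 higher (21.1%, against 36.1%). With 1 library left out, 15 to 16 targets were called in place of 17. MYOF, called lower, lost its call without Hep3B-Con replicate 2 or 3 or any Hep3B-KD library. ARHGEF17, called higher, lost it without any single library but Hep3B-KD replicate 2. The median log2 fold change was -0.28, against 0.11 for all genes tested. At least 2-fold changes were seen in 6 targets, 4 lower and 2 higher. This is 31.6% of those tested, against 8.83% of all genes tested. TGFB2, a ligand gene of the TGF-beta family, fell from 11.4 ± 0.535 to 4.11 ± 0.246 FPKM (SD, n = 3 each; log2 fold change -1.45, limma adjusted p = 3.63e-06). FJX1 fell by 1.40 on the log2 scale but from only 1.41 ± 0.117 FPKM (SD, n = 3), with as few as 12 reads in a Hep3B-KD library. Its Hep3B-KD mean of 0.496 FPKM was under the filter of 0.5 FPKM, so it was tested only through its level in Hep3B-Con. With the filter at 1 FPKM, 18 targets were tested, of which 12 were called lower and 4 higher. At least 2-fold changes were then seen in 5 targets. ANKRD1 fell by 1.18 and NUAK2, a kinase gene, by 1.11. NT5E rose from 8.37 ± 0.279 to 24.8 ± 0.68 FPKM (SD, n = 3 each), and CCDC80 rose by 1.05 on the log2 scale. The secreted matricellular targets CTGF and CYR61 were at 52.6% and 71.6% of their control means. AXL, FOXF2 and RBMS3 were below 0.5 FPKM on average and were not tested.

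The 3 targets on this list that restrain YAP went different ways. LATS2 was not called, AMOTL2 fell by 0.20 and PTPN14, a phosphatase that binds YAP in the cytoplasm, had a log2 fold change of 0.42 and rose from 6.83 ± 0.199 to 9.14 ± 0.129 FPKM (SD, n = 3 each).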

How the data were processed

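The mRNA of 3 Hep3B-Con and 3 Hep3B-KD samples was sequenced on an Illumina instrument after TruSeq library preparation. The authors deposited FPKM values for 29908 Ensembl genes, with 1 column per library and 0 columns without a sample. The submitters' processing notes name TopHat2 2.0.12, Bowtie2 2.0.6 and the build GRCh37. The counter and its annotation are not given in the sources used here. With exon lengths of GENCODE release 29 (GRCh38), 100% of the values above 0 came within 0.01 of whole reads, so GRCh38 coordinates of that release are given.

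Values were analysed as log2(FPKM + 0.1) with limma 3.58.1 (lmFit, eBayes with trend) in R 4.3.3 over the 14221 genes whose mean reached 0.5 FPKM, and adjusted by Benjamini-Hochberg over all of them. The fold change on this scale understates the change of low genes. Single values were compared with two-sided exact permutation tests in scipy 1.17.1. The fit was tested on simulated reads with known changes in 200 genes, far fewer than the 8521 called in these data. Such a setting cannot show how the fit behaves where most genes shift. Named were the 10 members, DAGLA, genes of the fixed Hippo and target lists (any could be named, and in each role the 3 with the largest called change were), markers, and the 3 genes closest to YAP1, TEAD2 and LATS1. CD37 and ATG7 were named because their exons overlap those of members. The members and lists were chosen with earlier results of these data known. Alternatives were the pseudocount, the filter, the scaling, the variance model, voom on recovered reads, the replicate block and leaving out each library. Single values of some listed Hippo genes are not reported here.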

Additional observations from a re-analysis of the deposited data

How the results depend on the processing

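Across 16 alternatives, YAP1, WWTR1, TEAD1, TEAD3, TEAD4, VGLL3, VGLL4 and LATS1 kept their direction and their call. TEAD2 lost its call with median centring (log2 fold change 0.014) and with voom on recovered reads (0.012). The sign of LATS2, never called, turned with median centring (-0.070), quantile normalization (-0.033) and voom (-0.075), and ranged from -0.0075 to 0.076 when 1 library was left out, turning without Hep3B-Con replicate 3. The number of members changed at least 2-fold was 1 with quantile normalization and 1 with voom, against 0. A pseudocount of 1 left 503 genes changed at least 2-fold in place of 1256, and 0 of the Hippo genes in place of 4, against 1 with quantile normalization; a larger pseudocount shrinks every fold change by construction. The difference in summed TEAD FPKM was -1.60 after rescaling to the same FPKM sum, in place of -3.15, and -4.04 to -2.28 when 1 library was left out. The other differences in shares, sums and log2 ratios moved by less than 1 SD (the root mean square of both groups' SDs). Signs of uncalled genes turned for FAT1 (0.071, quantile), WTIP (-0.12, quantile) and WWC1 (-0.00065, voom). Over DAGLA and nearly all other tested Hippo and target genes, 69 of 958 values under alternatives lost their call and 8 gained one. Apart from the scaling and the pseudocount, the cause was not tested. The replicate number did not pair the libraries, since the deviations of same-numbered libraries correlated at -0.0656 to -0.0011. With it as a block, 7919 genes were called in place of 8521, 34 Hippo genes in place of 39, 17 targets and 9 members. Among the target genes tested, FJX1 had the fewest reads, 12 in 1 library.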
